A study of Mus musculus with 16 samples.

Results

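The integrated stress response and unfolded protein response (UPR) genes described here were 10 named genes, taken by symbol from 2 tables of normalized counts that together list 16612 genes. All 10 were listed in the tumor table and 9 in the stroma table; Chac1 was not analysed in stroma. RNA came from bone marrow of untreated C57BL/6J mice, either wild-type (WT) or lacking Il6 in the host (IL6KO, Il-6-/-), collected 8 days after tail vein injection of 500000 B-ALL cells that carried BCR-ABL and were Arf-/-. The methods give recipients of both sexes aged 6 to 8 weeks. B-ALL is a leukemia of B-cell precursors, BCR-ABL is the fusion kinase that drives it, and Arf is a tumor suppressor lost in this line. The tumor libraries were the mCherry+ leukemia cells, 1 transplanted line with the same genotype in both hosts. Host genotype is the only difference that the labels give between the 2 tumor groups. The stroma libraries were all live mCherry- marrow cells left after red cell lysis, with no gate on a cell type. Each of the 4 groups (WT tumor, IL6KO tumor, WT stroma and IL6KO stroma) had 4 libraries.

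In the integrated stress response, kinases that sense amino acid shortage, viral RNA, heme shortage or misfolded protein phosphorylate eIF2. Most translation then slows, while the mRNA of Atf4 is translated better, and the ATF4 protein induces genes of amino acid supply, redox balance and cell death. The UPR shares the PERK branch of that response and adds IRE1, which splices Xbp1 mRNA, and ATF6, which is cleaved to become active. Dividing cells use serine to build nucleotides, and the plasma cells that B cells give rise to depend on XBP1 for secretion.

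Since ATF4 and XBP1 are themselves controlled largely after transcription, the sequences that read them out are shown first. The RefSeq promoters of all 10 genes (GRCm38.p6, 250 bases before to 50 after the start of transcription, 11 windows because Psat1 has 2) were searched on both strands for the core of the C/EBP-ATF response element, TGATGNAA, to which ATF4 binds with a partner. It was in 3 of the 11 windows, those of Asns, Chac1 and Trib3, and in 3.97% of the 32851 promoter windows of all genes. The cyclic AMP response element TGACGTCA, which other ATF and CREB factors bind and which reads the same on both strands, was in 1 window, that of Ppp1r15a, and in 1.79% of all windows. Of the UPR elements, ERSE (in 0.119% of all windows), ERSE-II (in 0.0365%) and UPRE (TGACGTGG, in 0.676%) had no match in these 11 windows. The 4 windows with a match are printed first with the match in capitals, and those of Atf4 and Phgdh, the genes called in tumor, follow with no match to mark. The Trib3 and Chac1 matches lie on the strand opposite to the gene.
Asns: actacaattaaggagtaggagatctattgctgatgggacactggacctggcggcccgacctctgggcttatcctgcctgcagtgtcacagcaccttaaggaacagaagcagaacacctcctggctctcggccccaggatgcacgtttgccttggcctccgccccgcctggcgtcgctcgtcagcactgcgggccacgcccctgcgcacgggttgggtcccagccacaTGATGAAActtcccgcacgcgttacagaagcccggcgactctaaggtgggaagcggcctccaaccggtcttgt
Chac1: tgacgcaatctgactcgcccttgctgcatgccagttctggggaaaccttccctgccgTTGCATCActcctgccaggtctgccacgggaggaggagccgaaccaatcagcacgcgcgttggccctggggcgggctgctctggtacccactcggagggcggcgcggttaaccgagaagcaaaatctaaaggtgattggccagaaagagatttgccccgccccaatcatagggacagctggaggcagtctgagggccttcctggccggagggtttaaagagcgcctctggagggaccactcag
Trib3: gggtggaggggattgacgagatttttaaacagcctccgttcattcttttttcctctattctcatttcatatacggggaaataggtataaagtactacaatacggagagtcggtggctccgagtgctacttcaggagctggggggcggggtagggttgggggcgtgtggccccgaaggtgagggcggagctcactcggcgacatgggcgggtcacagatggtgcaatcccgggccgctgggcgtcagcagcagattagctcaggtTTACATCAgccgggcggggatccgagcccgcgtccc
Ppp1r15a: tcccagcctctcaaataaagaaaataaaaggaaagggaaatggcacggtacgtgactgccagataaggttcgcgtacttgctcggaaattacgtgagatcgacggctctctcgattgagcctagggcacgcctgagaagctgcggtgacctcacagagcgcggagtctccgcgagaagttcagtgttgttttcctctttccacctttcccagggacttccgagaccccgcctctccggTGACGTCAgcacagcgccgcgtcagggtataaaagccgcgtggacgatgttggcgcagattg
Atf4: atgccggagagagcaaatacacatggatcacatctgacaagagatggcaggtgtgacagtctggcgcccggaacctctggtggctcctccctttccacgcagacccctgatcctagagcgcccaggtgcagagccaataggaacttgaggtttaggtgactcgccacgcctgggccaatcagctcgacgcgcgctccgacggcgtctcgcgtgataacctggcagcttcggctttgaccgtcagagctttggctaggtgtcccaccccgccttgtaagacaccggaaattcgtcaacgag
Phgdh: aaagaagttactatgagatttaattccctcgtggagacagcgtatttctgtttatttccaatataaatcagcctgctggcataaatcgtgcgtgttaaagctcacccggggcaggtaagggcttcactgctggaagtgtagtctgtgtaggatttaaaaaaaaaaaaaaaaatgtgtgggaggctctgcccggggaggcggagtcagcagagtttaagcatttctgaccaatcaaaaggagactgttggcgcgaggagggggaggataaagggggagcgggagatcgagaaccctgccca
These windows lie, in that order, at chr6:7693160-7693459 on the minus strand, chr2:119350992-119351291 on the plus strand, chr2:152344011-152344310 on the minus strand, chr7:45526219-45526518 on the minus strand, chr15:80254934-80255233 on the plus strand and chr3:98339920-98340219 on the minus strand. The response element of Asns covers bases 228 to 235 of its window, just before the start site, that of Chac1 bases 58 to 65, and that of Trib3 bases 265 to 272, just after the start site. The element of Ppp1r15a covers bases 239 to 246. A match is a run of letters and not a measured binding site.

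The stretch of Xbp1 coding sequence around the 26 bases between its IRE1 cut sites, in capitals, is shown because the tables count the whole gene. It lies in exon 4 of the gene on the plus strand, with the 26 bases at chr11:5524279-5524304 (GRCm38), and was the only 26-base interval of the coding transcript set between CNGCNGN motifs that all 3 protein-coding transcripts kept.
Xbp1: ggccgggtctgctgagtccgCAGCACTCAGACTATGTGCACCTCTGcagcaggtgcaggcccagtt
Removing the 26 bases shifts the reading frame and gives the active factor. A total for Xbp1 adds both forms together, so no value below tells spliced from unspliced mRNA. Likewise, no value tells how much ATF4 protein was made.

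Values are normalized counts, which the authors scaled separately in each table. A tumor value and a stroma value are therefore on different scales. Levels of single genes are compared with each other per kb of the longest protein-coding transcript. Ranks within a library use the normalized count without that division. Sums of normalized counts were 38817792 to 44552085 in WT tumor, 47267047 to 55592959 in IL6KO tumor, 8805689 to 17470735 in WT stroma and 33973016 to 44191950 in IL6KO stroma, while the median gene per kb was 179.6 to 188 in tumor and 24.9 to 26.9 in stroma. The methods give an approximate depth per sample, but not the number of reads in each library. B-lineage markers fit the label of the tumor libraries: 12 of 12 were listed, with summed levels of 144996 to 168088, led by Igll1, part of the surrogate light chain, and Cd79a. In stroma the erythroid markers had the highest summed levels among the 8 lists (57095 to 240261, 12 of 14 listed), led by Hba-a1 and Slc4a1. The T and NK cell markers had 2 of 12 listed in stroma, with sums of 0 to 44.8, and the mesenchymal and endothelial markers 6 of 10, with sums of 188 to 1798. Nothing in the sources used here ties each library to a mouse, so p-values measure only the spread between these libraries.

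In leukemia cells from IL6KO hosts, Atf4 and Phgdh rose, by 1.23-fold and 1.27-fold, and the other 8 genes did not pass the test. The genotype difference was tested with limma on log2(normalized count + 1), over all 14493 tumor genes with a mean over 10, as a two-sided test with p adjusted by Benjamini-Hochberg and called under 0.05. The 2 of 10 genes called stand beside 19.8% of all tumor genes called, 10.6% higher and 9.16% lower. At an unadjusted p under 0.05 the same 2 of the 10 passed, beside 35.1% of all tumor genes. The median log2 difference was 0.24 over the 10 genes and -0.01 over all genes tested. Of the 10 differences, 8 were positive, as were 49.3% of those of all tumor genes. With the trend in GC content and length removed, the median of the 10 was 0.08.

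Atf4 (chr15:80255184-80257541, plus strand) encodes the central transcription factor of the integrated stress response. Its normalized counts were 3594, 3371, 3719 and 3742 in WT tumor and 4604, 4508, 4229.9 and 4328 in IL6KO tumor. Every IL6KO library was above every WT library, a separation in that direction shown by 13.6% of tumor genes. The log2 difference was 0.29 with an SE of 0.06, a 95% interval of 0.15 to 0.43 and a limma adjusted p of 0.0127.

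Phgdh (chr3:98313170-98339990, minus strand) encodes the first enzyme of serine synthesis from glucose intermediates. It had normalized counts of 14506, 12142, 12471 and 12135 in WT tumor and 16326, 15690.2, 16732 and 16009.7 in IL6KO tumor. The groups did not overlap, with IL6KO higher, as for 13.6% of tumor genes. The first WT library was nonetheless well above the other WT libraries. The log2 difference was 0.34 with an SE of 0.07, a 95% interval of 0.19 to 0.50 and a limma adjusted p of 0.0102. The processed pseudogene Gm7901 on chromosome 8 matches the Phgdh transcript over 1597 bases at 98.7% identity, and a further copy, Gm9347 on chromosome 7, is not listed in either table. Gm7901 had means of only 9.69 in WT and 22.6 in IL6KO tumor, but how the authors' counting split reads between the copies is not known.

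Both differences were smaller once the trend with GC content and length was removed. Over all tumor genes, split into 5 bins of equal size by the GC content of the transcript, the median log2 difference went from -0.24 in the lowest bin through -0.09, -0.003 and 0.12 to 0.22 in the highest. Atf4, at 54.1% GC, was in bin 4, and Phgdh, at 57.2%, in the highest. When the trend with GC content and length was taken out of each library, neither gene was called: Atf4 had a log2 difference of 0.14 (limma adjusted p = 0.118) and Phgdh of 0.13 (limma adjusted p = 0.264), and 0 of the 10 genes passed. No gene of the 10 lay in the 2 lowest bins. That fit took out GC content and length together, so the part of base composition alone was not tested, for these 2 genes or for the median of the 10.

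**Figure D1:**
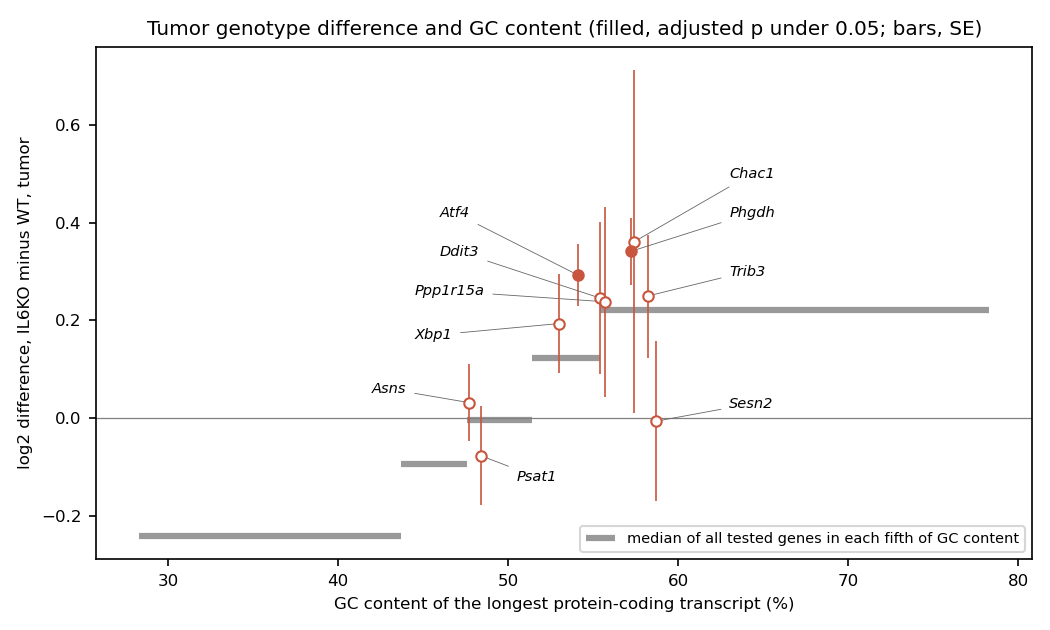
Log2 difference (IL6KO minus WT, vertical axis) of each gene in tumor against the GC content of its transcript in percent (horizontal axis), with bars for the SE and filled points for an adjusted p under 0.05; grey lines are the medians of all tested genes in each of 5 GC bins. The grey lines climb from -0.24 to 0.22, and Asns and Psat1, the genes of lowest GC content at 47.7% and 48.4%, sit near 0.

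Markers of another cell type also moved with the host genotype in tumor. Of the 14 neutrophil markers, 14 were listed and 12 rose in IL6KO tumor, with a summed level of 4941 to 5645 in WT and 7900.1 to 19093 in IL6KO libraries, led by Ngp and Ltf. Of the monocyte and macrophage markers 4 of 12 rose, with sums of 2027 to 2481 in WT and 2588 to 3571 in IL6KO tumor. Only 7 of these 12 differences were positive, with a median of 0.10 on the log2 scale. Both counts stand beside 10.6% of all tumor genes called higher. Their part in the differences of the 10 genes was not tested. In the third IL6KO library, where the neutrophil sum was lowest at 7900.1, Atf4 was also the lowest of its group at 4229.9, while Phgdh was the highest of its group at 16732. In a sorted population, fewer cells of a type and less RNA per cell cannot be told apart.

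Among the other regulators, Ddit3 encodes CHOP, a factor that ATF4 induces and that promotes cell death. Its tumor values were 117, 147, 149.8 and 125 in WT and 139, 191, 159 and 152 in IL6KO. The groups overlapped, and the log2 difference of 0.25 (SE 0.16, 95% interval -0.10 to 0.59) had a limma adjusted p of 0.290. Trib3 encodes a pseudokinase that binds ATF4 and CHOP and restrains them. It was at 370.0, 298, 399 and 347 in WT and 429.6, 378, 394 and 478 in IL6KO tumor, with overlapping libraries and a log2 difference of 0.25 (SE 0.13, limma adjusted p = 0.186). Ppp1r15a encodes GADD34, which brings phosphatase to eIF2 and ends the response. Its values were 280.2, 234, 319 and 312 in WT and 323, 472, 245 and 339 in IL6KO tumor, a log2 difference of 0.24 (SE 0.19, limma adjusted p = 0.413) in which 1 IL6KO library lay within the WT range. The intervals of Trib3 and Ppp1r15a ran from -0.03 to 0.53 and from -0.19 to 0.67.

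Among the other targets, none passed the test. Asns makes asparagine and Psat1 carries out the step of serine synthesis after Phgdh. Asns was at 1675, 1663, 1585 and 1499 in WT and 1709.9, 1497, 1752 and 1614 in IL6KO tumor, a log2 difference of 0.03 with an SE of 0.08 and a 95% interval of -0.14 to 0.21. Psat1 was at 8602, 7434, 8329.9 and 8347 in WT and 8091, 6326, 8847 and 7947 in IL6KO tumor, a log2 difference of -0.08 with an SE of 0.10 and a 95% interval of -0.30 to 0.15. Both intervals lie below the 0.34 measured for Phgdh, but the difference between genes was not tested. Chac1, which degrades glutathione, was low and variable, at 46.3, 25.7, 37.9 and 51.0 in WT and 81.1, 61.6, 28.97 and 44.1 in IL6KO tumor (log2 difference 0.36, SE 0.35). Sesn2, which senses leucine and restrains mTORC1, was at 119, 142, 103 and 150.2 in WT and 126, 141, 119.8 and 120.2 in IL6KO tumor (log2 difference -0.01, SE 0.16), with a difference of 0.14 after quantile normalization.

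Xbp1 (chr11:5520659-5525893, plus strand), the UPR factor whose cut sites are printed above, had tumor values of 1566, 1585, 1802 and 1858 in WT and 1811, 1723, 2064 and 2211 in IL6KO. The groups overlapped, with the IL6KO libraries at 1811 and 1723 inside the WT range. The log2 difference of 0.19 (SE 0.10, 95% interval -0.03 to 0.42) had a limma adjusted p of 0.199.

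**Figure D2:**
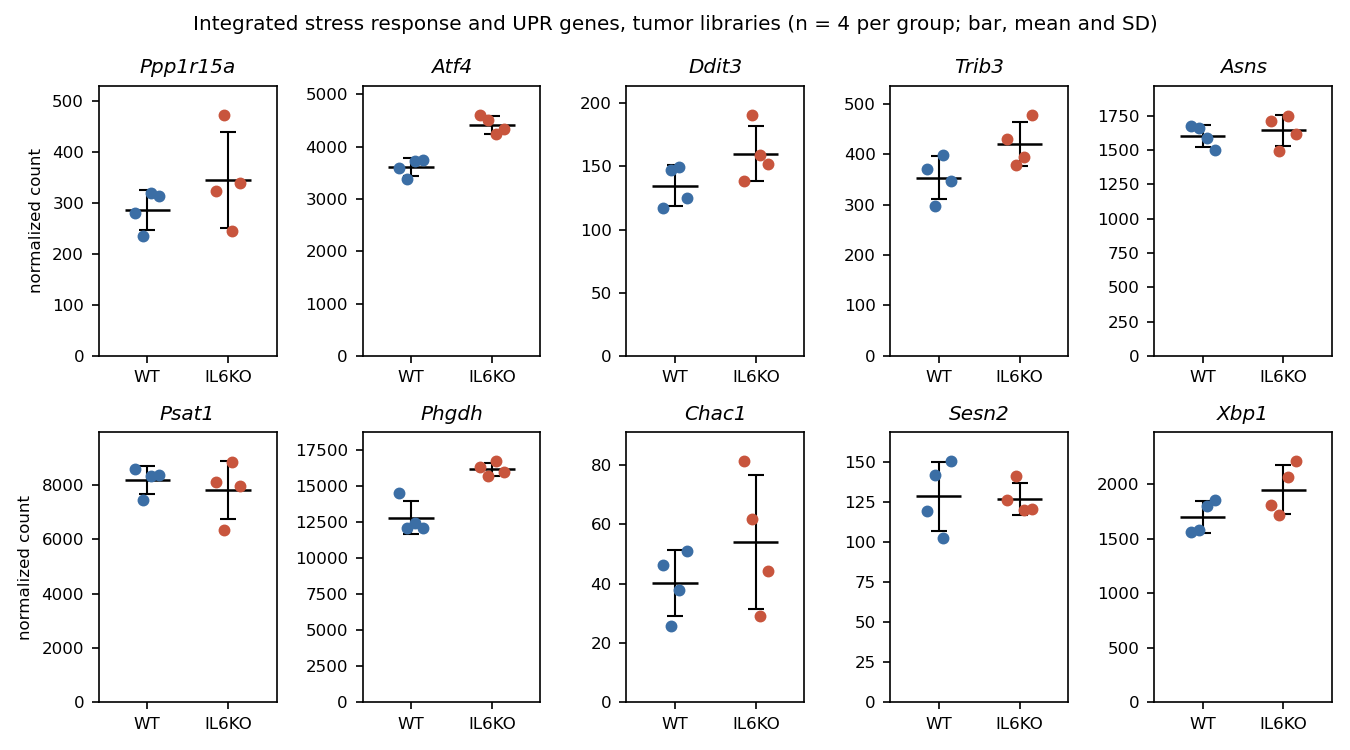
Normalized counts (vertical axes, from 0) of the 10 genes in the tumor libraries, with a point for each of the 4 WT and 4 IL6KO libraries and bars for the mean and SD. Only in the panels of Atf4 and Phgdh do the 2 groups not overlap, beside 25.6% of all tumor genes in either direction.

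Per kb, the leukemia cells carried the serine synthesis enzymes at the top of the 10 genes. In WT tumor the order was Phgdh (6769 ± 602 normalized counts per kb, SD, n = 4), Psat1 (3125 ± 195), Atf4 (2091 ± 98.7), Xbp1 (799.9 ± 69.9), Asns (796 ± 40.3), Trib3 (175 ± 21.2), Ddit3 (151 ± 18.2), Ppp1r15a (101.98 ± 13.9), Sesn2 (37.0 ± 6.21) and Chac1 (24.6 ± 6.76). Neighbours whose libraries overlapped were Xbp1 with Asns, Trib3 with Ddit3, and Sesn2 with Chac1. The order was the same in IL6KO tumor, where Psat1 with Atf4 and Ddit3 with Ppp1r15a overlapped as well.

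In stroma, none of the 8 genes tested passed the threshold, beside 0.0082% of all genes (1 of 12202). At an unadjusted p under 0.05 there were 1117 such genes, 9.15%, and 1 of the 8, Xbp1. The stroma libraries varied more than the tumor libraries, with a median residual SD over genes of 0.86 against 0.21 on the log2 scale. The median log2 difference was -0.18 over the 8 genes and -0.01 over all genes.

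Xbp1 had normalized counts of 196, 313, 433 and 425 in WT stroma and 664, 854, 458 and 616 in IL6KO stroma. All IL6KO libraries were above all WT libraries, as for 2.54% of stroma genes in that direction. The log2 difference was 0.95 (SE 0.36, 95% interval 0.18 to 1.73), with an unadjusted p of 0.0197 and a limma adjusted p of 0.461. Summed neutrophil markers were 7636, 11213, 12803 and 14500.0 in WT and 33225, 32259, 8053 and 27688 in IL6KO stroma, with 0 of 14 called, and the IL6KO library with the lowest sum also had the lowest Xbp1. Plasma cell markers, whose cells depend on XBP1, had sums of 209 to 469 in WT and 199 to 415 in IL6KO stroma, 7 of 10 listed, led by Txndc5 and Irf4. Plasmacytoid dendritic cell markers, another secretory type, had sums of 743 to 917 in WT and 542 to 1126 in IL6KO stroma. The part of any of these cells in the Xbp1 values was not tested.

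Ddit3 was the other gene of the 8 whose stroma libraries did not overlap, here with IL6KO lower, as for 3.25% of stroma genes (5.79% in either direction). It was at 108, 87.0, 142 and 78.8 in WT and 41.5, 74.5, 71.9 and 40.9 in IL6KO stroma, a log2 difference of -0.87 (SE 0.47, 95% interval -1.89 to 0.15, limma adjusted p = 0.593). Atf4 was at 879, 713, 675 and 783 in WT and 550.1, 543, 759 and 569.6 in IL6KO stroma. Its difference of -0.34 (SE 0.28, 95% interval -0.95 to 0.27, limma adjusted p = 0.735) rested on 3 IL6KO libraries below all WT libraries and 1 within their range.

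Ppp1r15a was even in WT stroma, at 1731, 1654, 1592 and 1915, and split in IL6KO stroma, at 576, 3616, 3019 and 506. The SD was 139.8 in WT and 1622 in IL6KO, and the log2 difference of -0.36 (SE 0.58) turned positive, at 0.16, when libraries were weighted by their quality. Without the first or the fourth IL6KO library it was 0.04 and 0.10. In the same order of IL6KO libraries the erythroid markers summed to 61010.3, 146695, 240261 and 57095, so the libraries low in Ppp1r15a were those low in erythroid RNA; whether one accounts for the other was not tested. In WT stroma the erythroid sums were 130412 to 189121.

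Of the amino acid genes, Psat1 was below the middle of the stroma genes by rank, while Asns and Phgdh lay near it. Asns was at 154, 123, 261 and 34.5 in WT and 75.2, 51.4, 158 and 34.6 in IL6KO stroma, so the lowest library of each group was at nearly the same level. Psat1 was at 18.4, 73.0, 27.6 and 20.3 in WT and 106, 58.3, 37.7 and 19.7 in IL6KO stroma. Phgdh was at 58.2, 125, 139 and 124 in WT and 100.4, 103, 68.0 and 166 in IL6KO stroma. Their log2 differences were -0.75 (95% interval -2.18 to 0.69), 0.64 (-0.88 to 2.15) and -0.03 (-1.03 to 0.98), intervals too wide to tell a change as large as that of Phgdh in tumor from none. Sesn2 was at 66.9, 133, 64.0 and 131 in WT and 140.1, 123, 111 and 97.01 in IL6KO stroma (log2 difference 0.32, 95% interval -0.63 to 1.27). Trib3, with a mean under 10, was not tested in stroma: it was at 21.3, 7.50, 0 and 3.33 in WT and 0, 5.58, 8.38 and 0 in IL6KO.

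**Figure D3:**
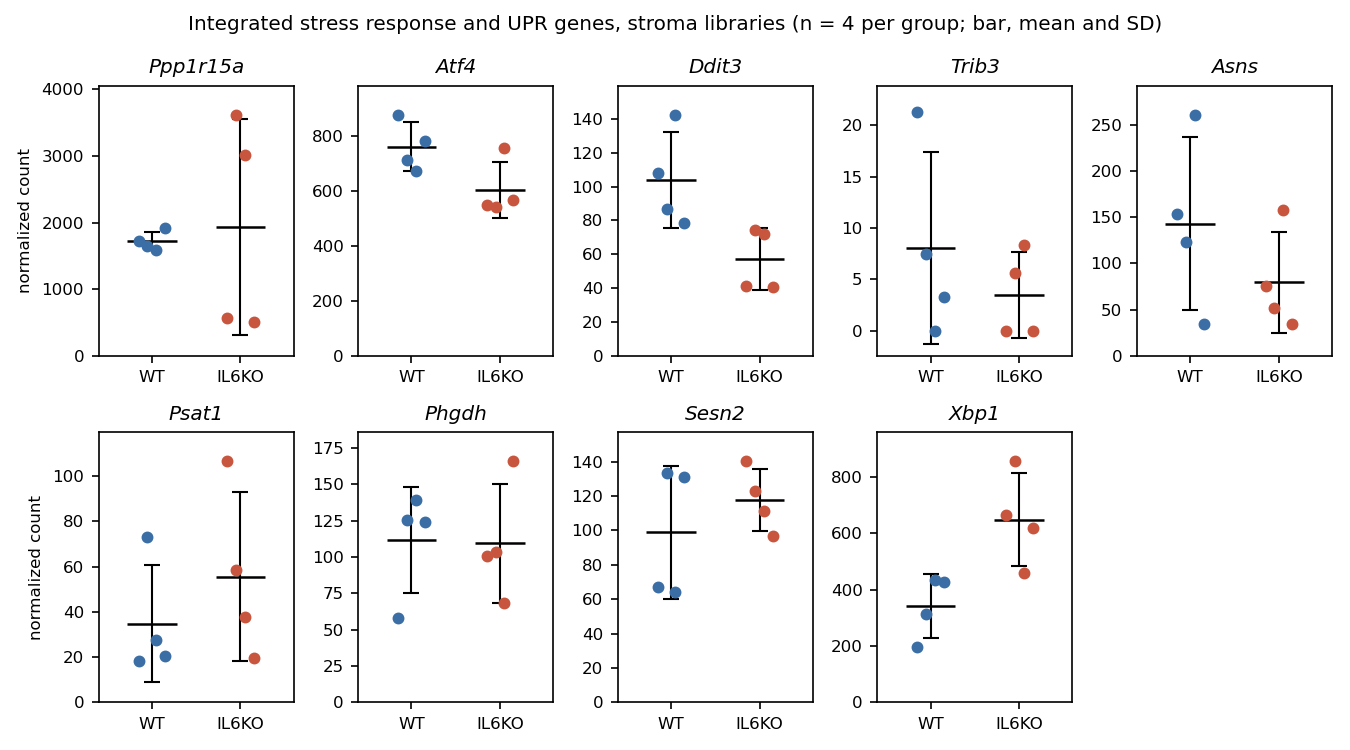
Normalized counts (vertical axes) of the 9 genes listed in stroma, with a point for each of the 4 WT and 4 IL6KO libraries and bars for the mean and SD. Xbp1 and Ddit3 separate the groups, and the Ppp1r15a points of IL6KO fall in 2 pairs, at 506 and 576 and at 3019 and 3616.

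Whether the host genotype acted differently on the 2 compartments was tested in 1 fit of all 16 libraries, as the stroma difference minus the tumor difference. None of the 8 genes passed, beside 0.00919% of all genes (1 of 10887). At an unadjusted p under 0.05 there were 954 genes, 8.76%, and 1 of the 8, Atf4. For Atf4 the log2 value was -0.63 (SE 0.25, 95% interval -1.15 to -0.11, unadjusted p = 0.0207, limma adjusted p = 0.485), from a positive difference in tumor and a negative one in stroma. The other values ran from -1.12 for Ddit3 (SE 0.58, limma adjusted p = 0.611) to 0.76 for Xbp1 (SE 0.40, limma adjusted p = 0.624). A difference between compartments was therefore not established for any of the 8.

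**Figure D4:**
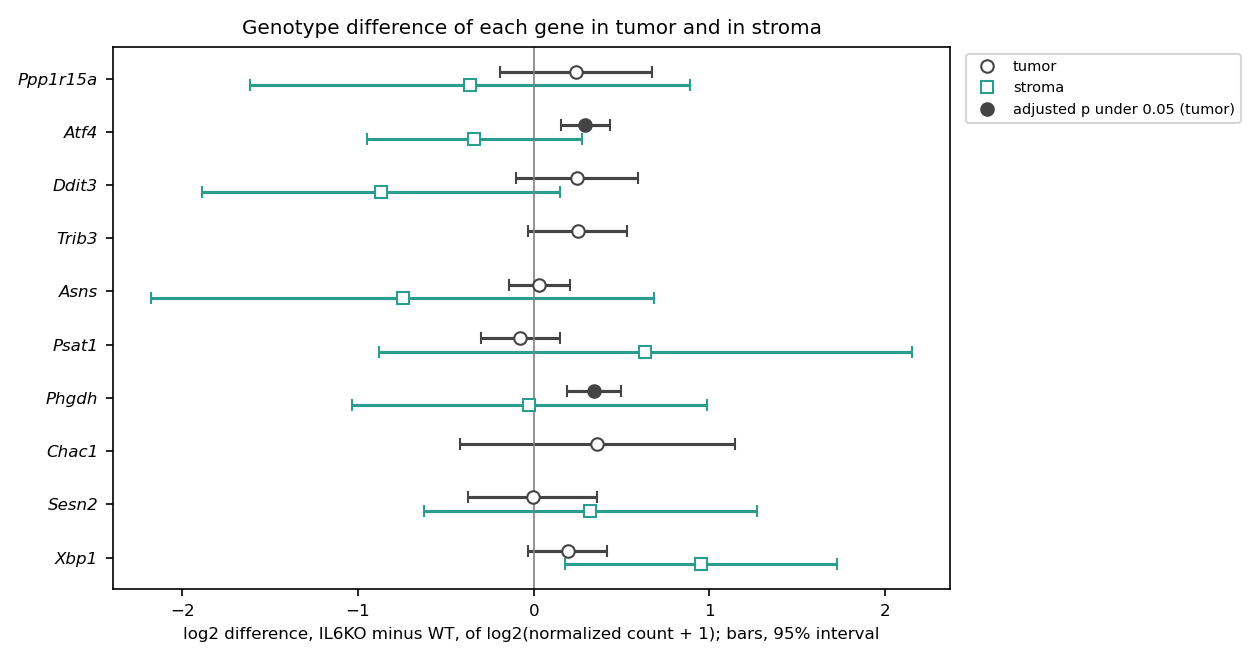
Log2 difference (IL6KO minus WT, horizontal axis) of each gene, with circles for tumor, squares for stroma, bars for the 95% interval and filled symbols for an adjusted p under 0.05. The filled circles are Atf4 at 0.29 and Phgdh at 0.34, and every stroma interval is wider than the tumor interval of the same gene.

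Levels in the 2 compartments were set side by side only as the percentile of each gene among the 11812 genes listed in both tables. The percentile was taken within each library by normalized count, not divided by transcript length, and with no test. Phgdh, Psat1 and Trib3 ranked higher in every tumor library than in every stroma library, as did 20.9% of all shared genes. Phgdh had a median percentile of 97.05 in tumor and 56.7 in stroma, Psat1 93.9 and 29.02, and Trib3 32.3 and 5.13. Ppp1r15a, Sesn2, Ddit3 and Atf4 ranked higher in every stroma library, as did 17.5% of all shared genes. Ppp1r15a had median percentiles of 29.3 in tumor and 97.4 in stroma, Sesn2 21.3 and 56.9, Ddit3 22.03 and 47.5, and Atf4 85.05 and 90.7. Xbp1 (67.4 and 84.6) and Asns (64.7 and 52.7) overlapped. When each library was ranked among all genes of its own table instead, Atf4 overlapped as well.

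**Figure D5:**
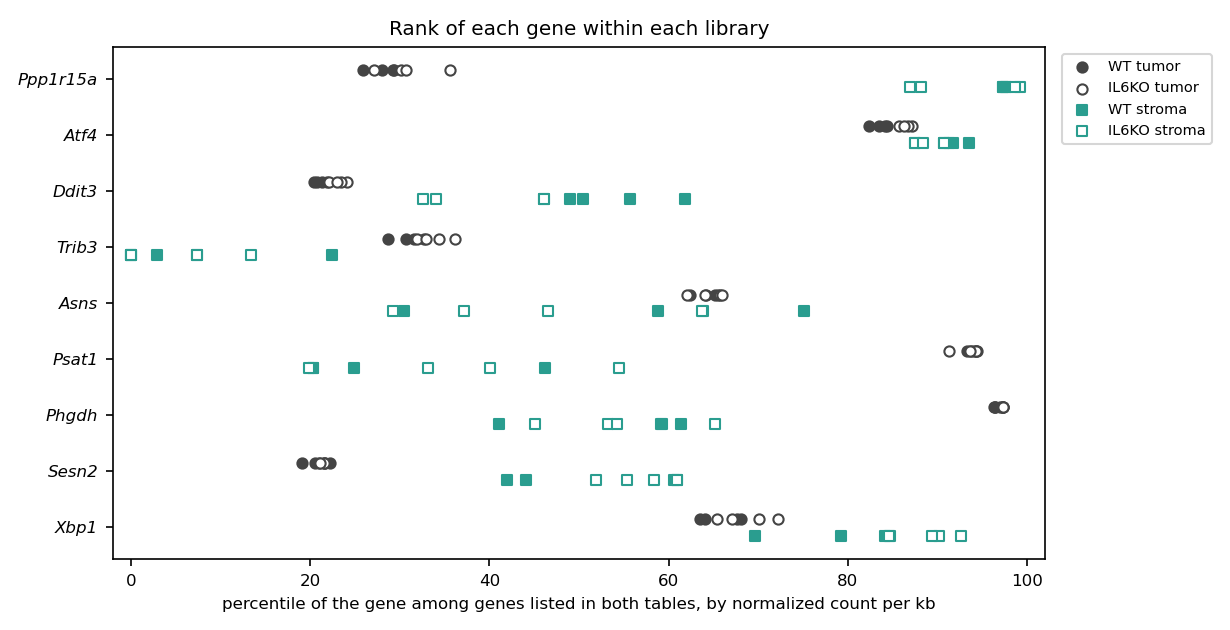
Percentile of each gene (horizontal axis) among genes listed in both tables, by normalized count within a library. The counts were not divided by transcript length, so the words per kb in the axis label do not apply. Circles are tumor, squares stroma, filled symbols WT and open symbols IL6KO. Ppp1r15a lies between 86.9 and 99.2 in stroma and between 25.9 and 35.6 in tumor, and Phgdh and Psat1 lie the other way round.

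Per kb, Ppp1r15a led the 9 genes in stroma (613 ± 49.8 in WT and 687 ± 577 in IL6KO), followed by Atf4 (442 ± 51.9 and 351 ± 59.7) and Xbp1 (161 ± 52.5 and 304 ± 76.7). In WT stroma the first 3 places did not overlap, and from Xbp1 to Trib3 (3.96 ± 4.61) every neighbour in the order did. In IL6KO stroma Ppp1r15a overlapped Atf4 and Atf4 overlapped Xbp1.

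The 10 genes sit in wider circuits, described here by 7 lists with their counts in tumor. In stroma, 0 genes of any of these lists were called by limma, and 0 to 3 of each had an unadjusted p under 0.05. As for Atf4 and Phgdh, the neutrophil markers rose beside these lists in tumor, and each named gene is given with its status once the GC and length trend was removed.

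The eIF2 kinases and eIF2 machinery, which start the response, moved both ways in tumor: of 14 genes tested 2 rose and 3 fell, where 10.6% of all tumor genes rose and 9.16% fell, with a median log2 difference of -0.09. Eif2b2 and Eif2b4, subunits of the exchange factor that phosphorylated eIF2 blocks, rose by 0.56 (SE 0.10) and 1.42 (SE 0.33) on the log2 scale. Eif2ak2, the kinase PKR that senses viral RNA, fell by 0.61 (SE 0.11), from 1506 ± 171 to 988 ± 109. Eif2s2, a subunit of eIF2 itself, fell by 0.26 (SE 0.07). Only Eif2s2 of these lost its call once the GC and length trend was removed. Eif2s2 also lost its call without any single library other than IL6KO 2 and 3 (limma adjusted p up to 0.0919). Eif2b4 lost its call without WT 2 (limma adjusted p = 0.0528). Without WT 2 the count higher was 1, and the count lower was 5 without IL6KO 3 and 1 without any of WT 1 to 4, IL6KO 1 or IL6KO 4. In stroma the log2 differences were 0.93 for Eif2b2, 1.04 for Eif2b4, -1.39 for Eif2ak2 and -0.35 for Eif2s2, with limma adjusted p of 0.432 to 0.761.

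Of 9 ATF4 partner and related bZIP factors, 2 rose and 1 fell in tumor (median 0.26), beside 10.6% and 9.16% of all tumor genes. Atf5, itself translated more when eIF2 is phosphorylated, went from 565 ± 49.4 to 864 ± 48.6. Its log2 difference was 0.61 (SE 0.09, limma adjusted p = 0.0036). Atf5 kept its call without the GC and length trend, at 0.35. Jdp2, a repressor of AP-1, rose by 1.23 (SE 0.32) from 34.6 ± 5.93, and Atf2, a stress kinase target, fell by 0.31 (SE 0.08). Both Jdp2 and Atf2 lost their call without the GC and length trend. Jdp2 also lost it without WT 1, WT 2 or IL6KO 1 (limma adjusted p up to 0.0593), and Atf2 without WT 2, 3 or 4 or IL6KO 1 or 4 (up to 0.0862), which set the count higher to 1 and the count lower to 0; without IL6KO 2 the count lower was 2. In stroma the differences were 0.61 for Atf5, 0.91 for Jdp2 and -0.72 for Atf2, none called.

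Among 18 other ATF4 target genes, 2 rose and 2 fell in tumor (median 0.09), a share called near the 19.8% of all tumor genes. The amino acid carriers Slc1a5 (glutamine and other neutral amino acids) and Slc7a1 (arginine and lysine) rose by 0.57 (SE 0.08) and 0.32 (SE 0.08). Both kept their calls without the GC and length trend. The glycine carrier Slc6a9 fell by 1.53 (SE 0.40), from 139 ± 92.8 to 42.1 ± 10.9, and the lipoprotein receptor Vldlr fell by 1.66 (SE 0.46). Slc6a9 is also abundant in red cell precursors, and in stroma its mean was 1372 in WT and 718 in IL6KO. Vldlr lost its call without the GC and length trend, and both Slc6a9 and Vldlr lost theirs after quantile normalization. Calls were also lost for Slc7a1 without WT 3, IL6KO 1 or IL6KO 4 (limma adjusted p up to 0.0549), for Slc6a9 without WT 2, IL6KO 1 or IL6KO 4 (up to 0.0715) and for Vldlr without WT 1, 2 or 4 or IL6KO 1 or 3 (up to 0.0829). The count higher was then 1 to 3 and the count lower 0 to 3. In stroma Slc1a5 was at 2411 ± 580.1 in WT and 2076 ± 1445 in IL6KO, and none of the 4 was called.

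Of 16 enzymes of serine, glycine, proline and one-carbon metabolism, 4 rose and 0 fell in tumor, beside 10.6% and 9.16% of all tumor genes, with a median log2 difference of 0.16. Shmt2, which passes the carbon of serine into mitochondrial folate, went from 12118 ± 729 to 18071 ± 1578. Its log2 difference was 0.57 (SE 0.08, limma adjusted p = 0.00194). Shmt2 kept its call without the GC and length trend, at 0.36. Pycrl, which completes proline synthesis, rose by 0.48 (SE 0.09), and Got1, an aspartate transaminase, rose by 0.28 (SE 0.08). Pycrl and Got1 lost their calls without the GC and length trend, which left Shmt2 as the only gene of the list called. Got1 also lost its call without WT 1, 2 or 3 or IL6KO 1, 3 or 4 (limma adjusted p up to 0.0774). In stroma the mean of Shmt2 was 172 ± 46.4 in WT and 445 ± 442 in IL6KO (log2 difference 0.84, SE 0.62), and Pycrl was near the filter at 10.6 and 15.7.

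The cytosolic aminoacyl-tRNA synthetases, which load amino acids on their tRNAs and many of which ATF4 induces, had 7 of 20 higher and 1 lower in tumor, beside 10.6% and 9.16% of all tumor genes, with a median of 0.20. Farsa went from 2764 ± 140 to 3864 ± 167, Dars from 3921 ± 199 to 5212 ± 184 and Nars from 5542 ± 256 to 7870.0 ± 813, log2 differences of 0.48 (SE 0.07), 0.41 (SE 0.06) and 0.50 (SE 0.08). Tars fell by 0.42 (SE 0.07), from 4503 ± 132 to 3379 ± 250. All 4 kept their calls in every alternative tried. Without the GC and length trend, 6 of the list were called higher and 1 lower. With 1 library left out the count higher was 5 to 11, the 11 being without IL6KO 2. In stroma the 4 genes had log2 differences of 0.27, 0.91, -0.001 and -0.09, and the list's median was 0.01.

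Of 13 UPR sensors and their processing enzymes, 2 rose and 0 fell in tumor (median 0.22), a share called no higher than the 19.8% of all tumor genes. Atf6b, a relative of ATF6, went from 2178 ± 289 to 3105 ± 238 (log2 difference 0.52, SE 0.10). It kept its call without the GC and length trend. Traf2, an adaptor of IRE1 signalling, went from 1189 ± 26.8 to 1498 ± 67.6 (0.33, SE 0.07) and lost it. Without IL6KO 2 the count higher was 5, and without WT 3 the count lower was 1. In stroma Atf6b and Traf2 had differences of 1.013 (SE 0.43) and 0.23 (SE 0.41).

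The XBP1 and ATF6 target genes, which fold, move and degrade secretory proteins, went both ways in tumor: 5 of 36 rose and 3 fell, near the 10.6% and 9.16% of all tumor genes, with a median of 0.04. Hyou1, a chaperone of the endoplasmic reticulum, went from 10978 ± 983 to 14582 ± 684 (log2 difference 0.41, SE 0.07) and Creld2 from 1531 ± 177 to 2095 ± 104 (0.46, SE 0.09). Ssr1, a subunit of the translocon-associated complex, fell by 0.54 (SE 0.09), from 8589.7 ± 713 to 5904 ± 612, and the disulfide isomerase Pdia3 fell by 0.41 (SE 0.07). All 4 kept their calls in every alternative tried. The count higher was 3 without any of WT 2, 3 or 4 or IL6KO 1, 3 or 4. In stroma, where Xbp1 itself had the difference of 0.95, the list's median was -0.20, and these 4 genes had log2 differences of -0.73, -0.27, -0.11 and -0.16, none called.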

How the data were processed

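RNA-seq was analysed from 16 libraries, 4 for each host genotype and compartment, grouped by their labels. Reads of 75 nt came from rRNA-depleted total RNA. The authors quantified reads with salmon 1.3.0 on mm10, with corrections for GC and sequence bias, and normalized the estimated counts with DESeq2 1.28.1. The deposited values are a scaled signal, separate for tumor and stroma and not whole reads, so no interval that needs a depth is given. The authors' own DESeq2 results (fold changes and p-values) were not used.

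Here limma 3.58.1 (R 4.3.3, moderated variances with a mean trend) was run on log2(normalized count + 1) over genes with a mean over 10, with genotype as the only term. Differences on this scale understate changes of low genes. The joint fit gave each compartment a weight. In simulated data, 200 genes were changed by 2 on the log2 scale. Of these, 164 were recovered in tumor (14232 genes), 32 in stroma (11768 genes) and 61 in the joint fit (10506 genes). All differences measured for the 10 genes were smaller than 2, so these counts do not tell how often changes of their size are found. False calls numbered 7 in tumor, 3 in stroma and 9 in the joint fit. Positions and transcripts came from GENCODE M21 (GRCm38), matched by identifier for 15069 of 15080 tumor and 13338 of 13344 stroma genes. Copies were searched with BLAST 2.17.0 at 97% identity over 150 nt. Promoters came from RefSeq.

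The 10 genes, the lists and the tests were chosen with earlier results of these data known. All 10 genes are named throughout. From each list up to 4 genes are named, those with the smallest p in tumor among the genes called, and from each marker list the 2 with the highest mean where it is described. One gene that the rule takes is not reported here. Alternatives were pseudocounts, filters, scalings, weights, the variance trend, removal of the GC and length trend, a replicate block and leaving out each library. Alternatives for the lists and their named genes were added after their values were seen.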

Additional observations from a re-analysis of the deposited data

Results flagged for a closer look

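Groups of 4 libraries were checked for a library far from its other members, 38 groups in all, and chance alone marks about 1 group in 20. There were 3 such libraries. Atf4 in the third IL6KO stroma library was at 759, with the other 3 at 543 to 569.6, so that the gap was 0.876 of the range (above Dixon's 95% limit for 4 libraries). Psat1 in the second WT stroma library was at 73.0, with the others at 18.4 to 27.6 (0.831 of the range). Phgdh in the first WT tumor library was at 14506, with the others at 12135 to 12471 (0.858 of the range), still below every IL6KO tumor library.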

How the results depend on the processing

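In tumor, 2 of the 10 genes, Atf4 and Phgdh, were called in every alternative except removal of the GC and length trend, which called 0 of them and 1800 genes in all in place of 2870. Leaving out 1 library at a time called 1572 to 3328 tumor genes and always 2 of the 10, with log2 differences of 0.26 to 0.31 for Atf4 and 0.32 to 0.40 for Phgdh. Sesn2 turned to 0.14 after quantile normalization; with 1 library left out it was -0.11 to 0.0736, Asns -0.00019 to 0.0763 and Psat1 -0.14 to 0.021. In stroma the genes called were 1, with 4 under array weights, 6 without a variance trend, 2 after removal of the GC and length trend and 1 to 3 with 1 library left out, none of them among the 8 tested. Ppp1r15a turned to 0.16 and Ssr1 to 0.11 under array weights, Pycrl to 0.00996 with a pseudocount of 5 and 0.19 after quantile normalization, and Nars to 0.10 after removal of the GC and length trend. With 1 library left out, stroma values were -0.31 to 0.18 for Phgdh, -0.84 to 0.10 for Ppp1r15a, -0.90 to 0.47 for Pycrl, -0.11 to 0.12 for Nars, -0.62 to 0.32 for Tars, -0.33 to 0.046 for Ssr1 and -0.66 to 0.11 for Creld2. Trib3 entered the stroma test only under a lower filter, at -0.93 (limma adjusted p = 0.849). In the joint fit the genes called were 1, with 3 without array weights and 0 to 8 with 1 library left out, and 0 of the 8 in each. The causes of these changes were not tested. With the replicate number as a block, 2 of the 10 stayed called in tumor (limma adjusted p of 0.039 for Atf4 and 0.0221 for Phgdh) among 2230 genes, and Eif2s2, Atf2 and Got1 lost their calls; deviations of same-numbered libraries correlated at -0.0186 to -0.000283 in tumor and -0.0293 to 0.126 in stroma, so the numbers were not taken to pair the samples. Of the 25 list genes that the naming rule takes, 14 kept their tumor call in every alternative. The stroma spread limits what 4 libraries a group could detect.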
